A study of Mus musculus with 6 samples.

Results

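Cytosolic ribosomal proteins build the ribosome of the cytoplasm, and the genes that encode them are described here in macrophages of mouse pancreatic tumours. Members were taken by name: gene names that start with Rpl or Rps and a digit, with Rplp0, Rplp1, Rplp2 and Rpsa added. Names that hold -ps and the Rps6k kinases were dropped, and so were rows with a mean under 1 FPKM over the libraries. FPKM is a level: fragments scaled to a length given to the gene and to the depth of the library. Of 53647 genes in the deposited table, 410 matched by name; 307 were dropped as -ps names and 9 as Rps6k names, which left 94. Of these, 7 had a mean under 1 FPKM, and the remaining 87 are the members: 51 with large subunit names and 36 with small subunit names. The members comprise 76 core ribosomal proteins (45 large, 31 small), 6 relatives (Rpl22l1, Rpl36al, Rpl7l1, Rps27l, Rps27rt and Rps19bp1) and 5 further gene copies (Rpl32l, Rpl6l, Rpl37rt, Rps3a2 and Rps3a3). The 2 members just above the limit of 1 FPKM were Rpl29 at 6.57 FPKM and Rpl32l at 12.02 FPKM, and the 2 names just below it were Rpl21 at 0.851 FPKM and Rps23rg1 at 0.612 FPKM.

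A ribosome has a large subunit, which joins amino acids, and a small subunit, which reads the mRNA. Each holds a single copy of nearly all of its proteins, so cells make the proteins in matched amounts. Mammalian ribosomal protein mRNAs start with a tract of pyrimidines, the 5′ terminal oligopyrimidine tract, through which mTORC1 signalling controls their translation. Their abundant, short mRNAs have also been copied back into the genome many times, which has left processed copies without introns.

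Macrophages had been taken from tumours of an orthotopic model of pancreatic ductal adenocarcinoma, that is, tumours grown in the pancreas, in C57BL/6 mice. They were sorted by Cxcr4, the receptor of the chemokine Cxcl12, into Cxcr4+ cells (3 libraries) and Cxcr4- cells (3 libraries), and total RNA was sequenced. All libraries share the mouse strain and the tumour model; the labels name no tumour line, age, sex or sort gate, and Cxcr4 status is the single difference they give. Nothing in the labels ties a library to its own mouse, so a p-value here reflects library-to-library spread, which may be technical.

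The libraries held 52214239 to 55740671 estimated counts in Cxcr4+ cells and 46444934 to 50218371 in Cxcr4- cells. The core member of median depth had 43469 counts or more in every library, and the shallowest, Rpl29, had 66 to 1055 counts. The sorted gene itself, Cxcr4, averaged 9.27 ± 0.285 FPKM in Cxcr4+ libraries and 7.42 ± 1.32 FPKM in Cxcr4- libraries (SD, n = 3 each), a difference that did not pass the test (adjusted p = 0.999, edgeR's quasi-likelihood test with Benjamini-Hochberg adjustment). Among cell type markers, 15 macrophage genes summed to 8021 to 9811 FPKM in Cxcr4+ libraries and 7219.7 to 8407 FPKM in Cxcr4- libraries. By contrast, 12 lymphocyte markers summed to 0.716 FPKM or less in any library, and 8 of 9 acinar markers were listed at 0. Not every macrophage gene of the list was high. C1qb averaged 0.601 FPKM in Cxcr4+ and 0.0409 FPKM in Cxcr4- libraries, and Mertk 1.56 and 1.95 FPKM in the same order. The 10 neutrophil markers summed to 6.66 to 9.34 FPKM in Cxcr4+ libraries and 7.15 to 10.2 FPKM in Cxcr4- libraries, with S100a9 and Camp at 0 in every library.

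Levels of the core members are described first. The 45 large subunit core members ran from Rpl29 at 6.57 FPKM to Rplp1 at 3268 ± 313 FPKM, and the 31 small subunit core members from Rps2 at 44.1 FPKM to Rps15 at 2379.7 ± 163 FPKM (SD, n = 6 libraries). Rplp1, of the acidic stalk that engages elongation factors, was followed in the large subunit by Rpl4 at 1987 ± 75.5 FPKM, Rpl19 at 1953 ± 56.4 FPKM and Rpl23a at 1548 ± 89.9 FPKM. Rpl4 and Rpl23a lie at the tunnel through which new proteins leave the ribosome. Rpl32 stood at 1435 ± 113 FPKM and Rpl36 at 1359.6 ± 107 FPKM. In the small subunit Rps15 was followed by Rps3a1 at 1962 ± 116 FPKM, Rps6, the substrate of S6 kinases, at 1337 ± 66.9 FPKM, and Rps23, of the decoding centre, at 1156 ± 51.5 FPKM. Rps4x stood at 999.6 ± 58.6 FPKM and Rps16 at 879 ± 48.9 FPKM.

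The lowest core levels belonged to Rpl35a (28.1 ± 2.90 FPKM) and Rpl30 (40.3 ± 12.4 FPKM) after Rpl29 in the large subunit, and to Rps18 (66.9 ± 6.40 FPKM) and Rps15a (136 ± 7.16 FPKM) after Rps2 in the small subunit. This order depends on the length by which each gene was scaled. In Cxcr4+ replicate 1, Rps15a had 50446 counts at 128 FPKM and Rplp1 97401 counts at 3094 FPKM, where the core median was 50720.5 counts. Replicate spread was small: the coefficient of variation over the 6 libraries had a median of 5.97% among core members and was under 10% for 60 of 76. Neighbours in the order of levels were mostly not apart. Of 44 neighbouring pairs in the large subunit 10 had means further apart than the sum of their SDs, and of 30 in the small subunit 11 had; Rplp1 over Rpl4 and Rps15 over Rps3a1 were among them, while Rpl4 and Rpl19 were not.

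A large part of the summed FPKM of these genes lay on copies elsewhere in the genome. Copies were sought among annotated transcripts as sequences at least 90% identical over at least 60% of the coding sequence, or by a -ps name built on the gene's name. There were 1080 copies of 74 of the 77 core genes (the 76 core members and Rpl21), and 399 of them, of 73 genes, had a mean of at least 1 FPKM. Rpl7a had the most, 86. Rpl8 and Rpl41 had no copy. Summed over the core genes, the genes themselves held 47257 FPKM and the copies 40528 FPKM, so the copies held 46.2% of the sum. Shares of summed FPKM are not shares of fragments, since each row is scaled by its own length. In Cxcr4+ replicate 1, Rpl6 had 78086 counts at 394 FPKM and the copy Rpl6l 11329 counts at 206 FPKM. How the counting divided fragments between near-identical sequences is not given in the sources used here, so a level printed for a gene with such copies is uncertain.

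The 7 lowest core genes were the 7 with the largest part of their sum on copies. Rpl21 itself held 0.0424% of the sum of gene and copies, Rpl29 0.327%, Rpl35a 1.49%, Rpl30 2.14%, Rpl26 2.22%, Rps2 2.48% and Rps18 2.59%. In these 7 genes the gene held under 5% of its summed FPKM, in 26 it held under 50%, and in 16 over 90%. These shares depend on the length given to each row and are not shares of fragments. Adding copies brought Rpl21 to 2007 FPKM, Rpl29 to 2008 FPKM, Rpl30 to 1886 FPKM and Rpl26, which had been at 81.6 FPKM, to 3669 FPKM. The highest gene over the lowest was 3843-fold for the 77 core genes alone and 35.5-fold with copies added. The first of these rests on Rpl21, and for the 76 core members alone it was 497-fold. Within 4-fold of the median lay 64 of the 77 genes alone (median 452 FPKM) and 74 with copies (median 912 FPKM).

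**Figure D1:**
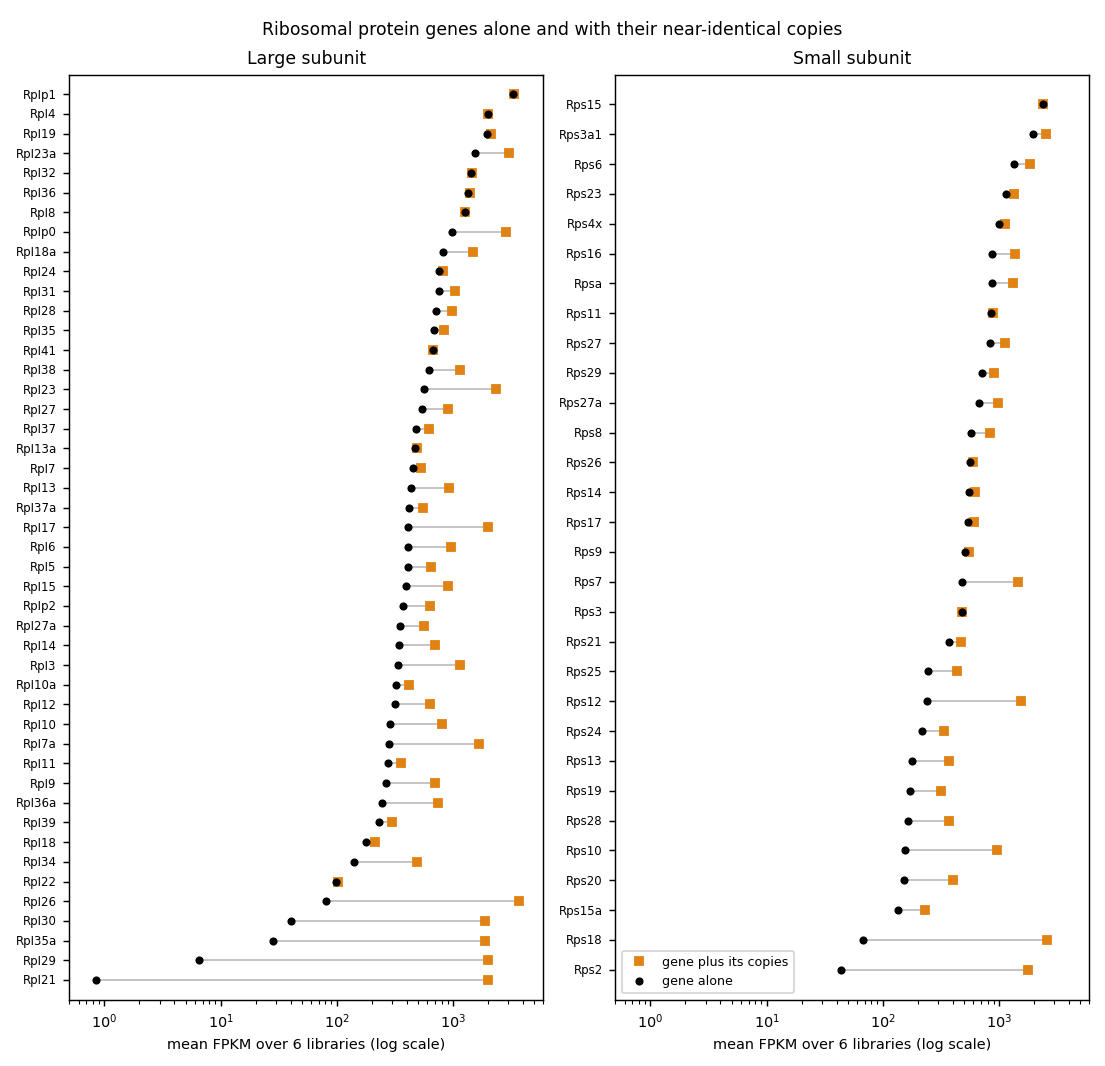
Mean FPKM over the 6 libraries (log scale) of core ribosomal protein genes, in 2 panels by subunit, for the gene alone (black circles) and with its copies added (orange squares). Rpl21, Rpl29, Rpl35a, Rpl30 and Rpl26 at the foot of the large subunit and Rps18 and Rps2 at the foot of the small subunit move to between 1780.3 and 3669 FPKM once copies are added.

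The sequences show how little can separate such a gene from its copy. The stretches below are 61 bases of coding sequence from GENCODE M21 transcripts, with the mismatch in capitals. They are shown for some pairs with high copies and for Rpl29, and other pairs differ by more. The copy Gm8730 of Rplp0, at 1498.7 FPKM, has 12 mismatches in its coding sequence and is not printed. Rpl26 lies on chr11:68792409-68797815 and its copy Gm15772 on chr5:3286431-3286868, in GRCm39 as deposited. Gm15772, a processed pseudogene, differs from the Rpl26 coding sequence by C177T and T288C (positions counted from the A of the start codon, the gene's base first and the copy's last), and held 3517 FPKM on average.
Rpl26: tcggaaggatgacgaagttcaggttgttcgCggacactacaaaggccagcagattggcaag
Gm15772: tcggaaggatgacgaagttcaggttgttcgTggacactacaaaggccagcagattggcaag
Rpl23 lies on chr11:97668353-97673263 and Gm9794, at 1783 FPKM beside 567 FPKM for Rpl23, on chr6:66852305-66852727; they differ by C253T alone.
Rpl23: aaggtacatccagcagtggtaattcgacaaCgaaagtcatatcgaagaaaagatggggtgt
Gm9794: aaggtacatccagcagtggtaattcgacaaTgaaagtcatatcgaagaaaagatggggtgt
Rpl30 lies on chr15:34440651-34443405 and Gm12191, at 1766 FPKM beside 40.3 FPKM for Rpl30, on chr11:49569537-49569884; they differ by G96A alone.
Rpl30: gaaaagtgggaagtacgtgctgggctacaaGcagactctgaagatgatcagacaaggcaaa
Gm12191: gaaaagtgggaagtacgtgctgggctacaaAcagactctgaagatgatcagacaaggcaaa
Rpl29 lies on chr9:106306653-106308767 and Gm13841, at 1260.0 FPKM, on chr5:115939736-115940218; they differ by C72A, C300T and T423C.
Rpl29: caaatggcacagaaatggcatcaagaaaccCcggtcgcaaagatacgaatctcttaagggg
Gm13841: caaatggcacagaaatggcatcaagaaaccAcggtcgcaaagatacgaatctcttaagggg

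In some of these families single rows varied far more between libraries than the sum did, and in others the sum varied as much or more: the coefficient of variation was lower with copies added for 39 of the 77 core genes and higher for 35. Rpl29 had 11.98, 1.03 and 1.30 FPKM in Cxcr4+ replicates 1 to 3, against 16.5, 1.04 and 7.59 FPKM in Cxcr4- replicates 1 to 3, and its copies summed to 1787, 1952 and 1999 FPKM against 2209.7, 2032 and 2031 FPKM. Its own values overlapped between the groups and had the widest spread of the 87 members, while the sum of gene and copies had a coefficient of variation of 6.89% against 100.4% for the gene. Rps18-ps6, a copy of Rps18, was listed at 0, 2550.1 and 0 FPKM in Cxcr4+ libraries and at 949, 869 and 1405 FPKM in Cxcr4- libraries. Rps18-ps4, another, was listed at 1057, 0 and 1146 FPKM in Cxcr4+ libraries and at 720.1, 920.1 and 396 FPKM in Cxcr4- libraries. The one was at 0 where the other was high in Cxcr4+ libraries, and both were above 0 in all 3 Cxcr4- libraries. Rps18 itself held 59.4, 72.1 and 62.2 FPKM in Cxcr4+ libraries and 69.1, 75.8 and 63.1 FPKM in Cxcr4- libraries, which overlapped.

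Of the copies at or above 100 FPKM, 12 of 78 had a coefficient of variation over 30%, and 0 of 69 core members at that level did. The FPKM sums did not always settle: the family sums of Rps18, Rps13 and Rps2 varied by 22.2%, 20.2% and 18.2%. With counts of gene and copies added instead, only Rps2 of these had a wide standard error of its log2 fold change. It was 0.181 for Rps2, 0.082 for Rps18 and 0.077 for Rps13, beside a median of 0.088 for single members. For Rps2, the copy Rps2-ps10 had 728, 1037 and 1119 FPKM in Cxcr4+ libraries and 2.11, 708 and 739 FPKM in Cxcr4- libraries, so that Cxcr4- replicate 1 stood apart from the other 5. Between the groups, 0 of 399 copies passed edgeR's quasi-likelihood test with Benjamini-Hochberg adjustment, 28 (7.02%) had an unadjusted p under 0.05, and DESeq2 called 1, where 0.0312%, 4.85% and 0.436% of all genes did by these rules; their log2 fold changes ran from -2.68 to 3.15. None of the 76 core members had a fitted log2 fold change beyond 1, and 16 of the copies did. The sets differ in level, since 69 of 76 core members but 78 of 399 copies were at or above 100 FPKM.

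**Figure D2:**
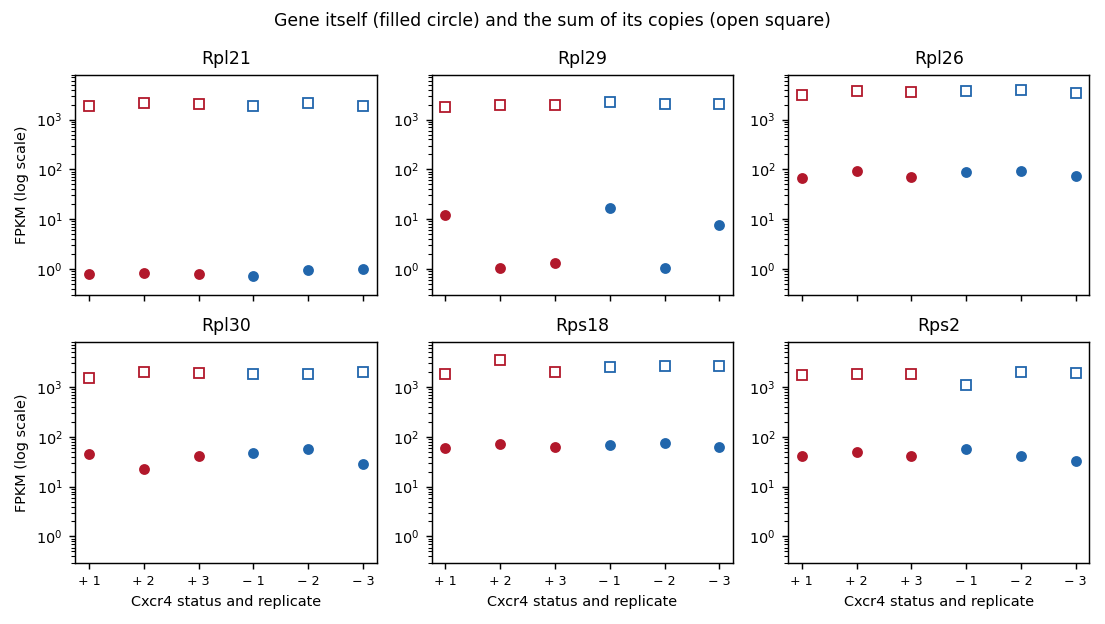
FPKM (log scale) of 6 core genes in each library, with the 3 Cxcr4+ libraries (red) left of the 3 Cxcr4- libraries (blue), for the gene itself (filled circles) and the sum of its copies (open squares). Copies stand well above the gene in every library, and Rpl29 itself runs from 1.03 to 16.5 FPKM while its copies stay between 1787 and 2209.7 FPKM.

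Between Cxcr4+ and Cxcr4- macrophages, the comparison the sort was made for, no ribosomal protein gene passed the test in either direction. Of 87 members tested, 0 were called higher and 0 lower in Cxcr4+ cells at an adjusted p under 0.05 (edgeR's quasi-likelihood test with Benjamini-Hochberg adjustment over 16031 genes), where 0.0125% of all genes tested were called higher, 0.0187% lower and 0.0312% in either direction. The unadjusted p was under 0.05 for 3 members (4.85% of all genes tested), and DESeq2 called 0 members where it called 0.436% of genes. Sizes were small: the median log2 fold change was -0.05 among members and 0.00041 among all genes, and 78 of 87 members lay within 0.2 of 0. The median standard error of a member was 0.088 on the same scale.

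Signs leaned one way in both subunits. The log2 fold change was below 0 for 67 of 87 members (77%), beside 49.9% of all genes tested and 55.5% of the 456 genes at or above 100 FPKM. Those 456 include 69 core members and 78 copies, so they are not a background apart from the members. The large subunit had 38 of 51 below 0 with a median of -0.05, and the small subunit 29 of 36 with a median of -0.04. Members share libraries and are not replicates, so these counts carry no test. Groups did not overlap for 6 members (6.9%), where 10.4% of all genes tested and 10.3% of genes at or above 100 FPKM did not overlap. Rpl10a, Rpl39 and Rps27l were higher in all 3 Cxcr4+ libraries, as were 5.5% of all genes, and Rpl3, Rpl37a and Rpl28 lower, as were 4.87%.

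**Figure D3:**
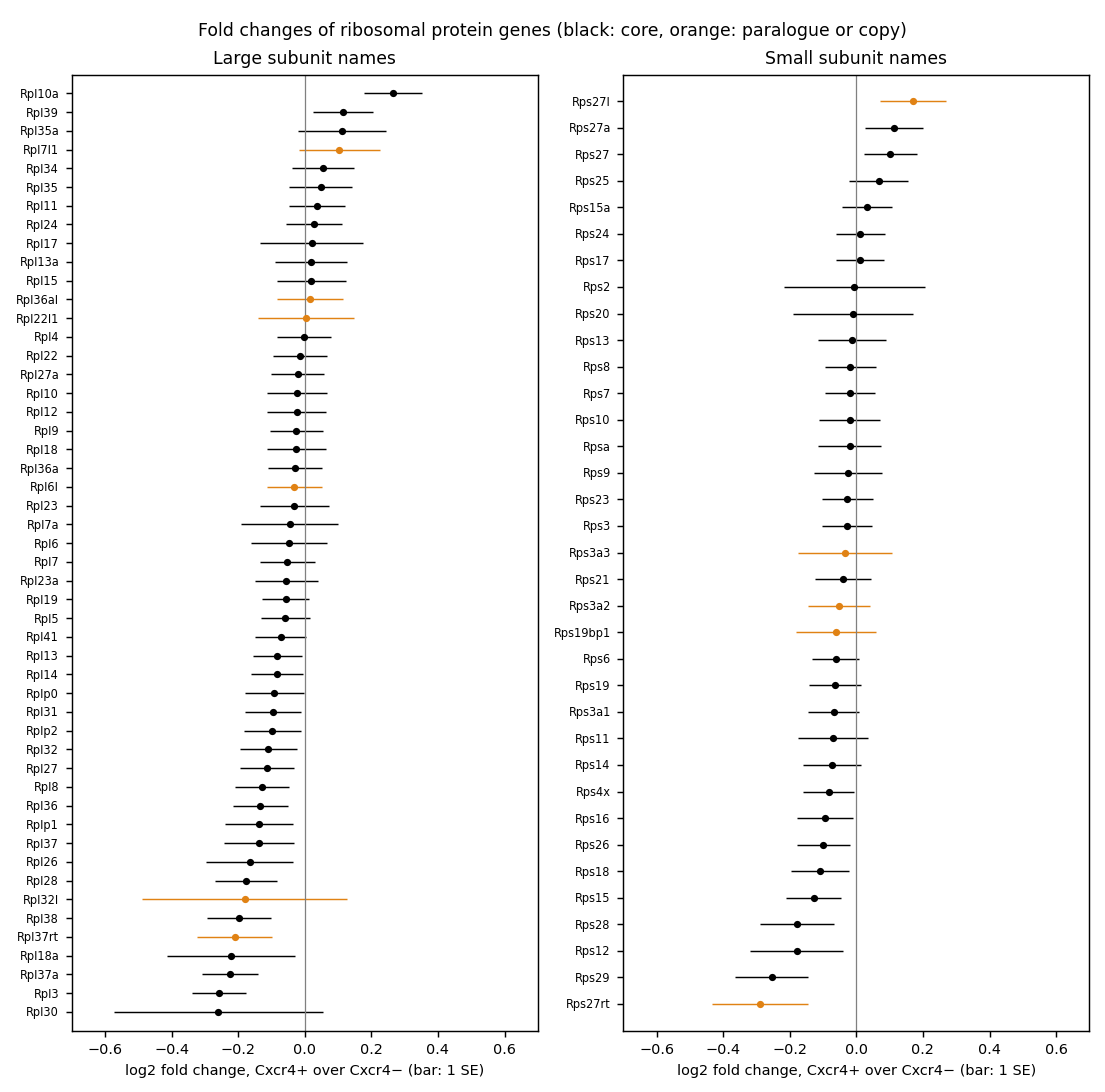
Log2 fold change, Cxcr4+ over Cxcr4-, of members in 2 panels by subunit, with bars of 1 standard error; core genes are black, relatives and copies orange. Rpl29, at -0.83 with a standard error of 1.14, is left out for scale. Most points lie a little left of 0, from -0.29 for Rps27rt to 0.27 for Rpl10a.

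Rpl3 and Rpl10a came nearest to the threshold, on opposite sides. Rpl3, a protein of the peptidyl transferase region, had 288, 328 and 301 FPKM in Cxcr4+ replicates 1 to 3, against 343, 359 and 388 FPKM in Cxcr4- replicates 1 to 3. Each Cxcr4+ library was below each Cxcr4- library, and its log2 fold change stood at -0.26 ± 0.08 (SE; adjusted p = 0.953, edgeR's quasi-likelihood test with Benjamini-Hochberg adjustment). Rpl10a, of the stalk beside the exit site, had 333, 392 and 337 FPKM in Cxcr4+ libraries, against 304, 290.1 and 282 FPKM in Cxcr4- libraries. All 3 Cxcr4+ values were the higher, and its log2 fold change stood at 0.27 ± 0.09 (SE; adjusted p = 0.953, edgeR's quasi-likelihood test with Benjamini-Hochberg adjustment). Rpl3 also has abundant copies: with them it stood at 1089.8 ± 82.0 FPKM in Cxcr4+ and 1211 ± 33.3 FPKM in Cxcr4- cells (SD, n = 3 each).

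Rpl37a, a zinc-binding protein of the large subunit, had 345, 415 and 393 FPKM in Cxcr4+ libraries, against 447, 456 and 437 FPKM in Cxcr4- libraries. These groups did not overlap, and the log2 fold change was -0.22. Rps29, a small zinc-binding protein of the small subunit, had 611, 719 and 642 FPKM in Cxcr4+ libraries, against 865, 779.7 and 692 FPKM in Cxcr4- libraries, where the highest Cxcr4+ value lay above the lowest Cxcr4- one. Rpl38, needed for translation of Hox mRNAs in mouse embryos, averaged 585 ± 54.1 FPKM in Cxcr4+ and 666 ± 55.9 FPKM in Cxcr4- cells, and Rpl28 averaged 672 ± 73.8 and 755 ± 21.4 FPKM in the same order. On the other side, Rps27a, which is made as a fusion with ubiquitin, averaged 698 ± 37.5 FPKM in Cxcr4+ and 644 ± 22.7 FPKM in Cxcr4- cells. Rps27 averaged 865 ± 23.7 FPKM in Cxcr4+ and 804 ± 43.0 FPKM in Cxcr4- cells, and Rpl39, of the exit tunnel, 241 ± 11.7 and 222 ± 7.29 FPKM in the same order (SD, n = 3 each throughout). Adjusted p was 0.998 or more for each of these (same test).

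Members known for roles beyond the ribosome did not pass the test either. Rpl5 and Rpl11, which with 5S rRNA bind Mdm2 and so link ribosome assembly to p53, averaged 399.6 ± 27.8 and 278 ± 12.1 FPKM in Cxcr4+ cells, against 415 ± 24.1 and 270.4 ± 9.75 FPKM in Cxcr4- cells. Rplp0, the base of the stalk, averaged 958 ± 21.6 FPKM in Cxcr4+ and 1015 ± 57.8 FPKM in Cxcr4- cells, and Rpsa, also known as the laminin receptor, 873 ± 27.0 and 885 ± 116 FPKM. Rps6 averaged 1311 ± 90.4 FPKM in Cxcr4+ and 1362 ± 32.0 FPKM in Cxcr4- cells. Rpl32 had 1216, 1496 and 1439 FPKM in Cxcr4+ libraries, against 1472, 1538 and 1446 FPKM in Cxcr4- libraries. Those overlapped, whereas Snora7a, a small nucleolar RNA encoded in an intron of Rpl32, had 16.9, 13.7 and 15.8 FPKM in Cxcr4+ libraries, against 0.253, 0.309 and 0.336 FPKM in Cxcr4- libraries, on 113 to 149 counts against 3 in each. Snora7a was called higher in Cxcr4+ cells (adjusted p = 0.0154, edgeR's quasi-likelihood test with Benjamini-Hochberg adjustment), and its host gene was not.

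Among the relatives, Rps27l, a paralogue of Rps27 that p53 induces, had 158, 160.3 and 181 FPKM in Cxcr4+ libraries, against 142, 146 and 155 FPKM in Cxcr4- libraries, with no overlap and a log2 fold change of 0.17 that did not pass. Rps27rt, a retrogene whose coding sequence is identical to that of Rps27, averaged 218 ± 26.9 FPKM in Cxcr4+ and 266 ± 39.9 FPKM in Cxcr4- cells, and the 2 genes' reads cannot be told apart over that sequence. Rpl36al averaged 171 ± 23.3 and 169 ± 17.5 FPKM, Rpl22l1 27.0 ± 2.87 and 26.8 ± 2.30 FPKM and Rpl7l1 19.1 ± 2.58 and 17.8 ± 3.16 FPKM, in Cxcr4+ and Cxcr4- cells. Rps19bp1, a nucleolar protein named for binding Rps19 and not a ribosomal subunit protein, averaged 13.98 ± 1.004 and 14.5 ± 0.279 FPKM in the same order (SD, n = 3 each throughout).

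With the copies' counts added to their gene, again nothing passed. Of 77 core families 0 were called, where 0.0322% of rows in that fit were; 4 had an unadjusted p under 0.05, where 4.86% of rows did. The median log2 fold change was -0.06 over a range of -0.25 to 0.22, and 61 of 77 families were below 0, as were 49.8% of rows. Of single genes tested, without copies added, groups did not overlap for 10.4% in either direction and for 4.87% with Cxcr4+ cells lower. Groups did not overlap for 5 families (6.49%), lower in Cxcr4+ cells in each: Rpl37a, Rpl3, Rpl29, Rplp0 and Rpl13. Of these, Rplp0 with its copies held 2707, 2715 and 2783 FPKM in Cxcr4+ libraries, against 3099.9, 2868 and 2819 FPKM in Cxcr4- libraries.

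Summed levels per library gave the subunits side by side. Large subunit members summed to 26381, 28958 and 28422 FPKM in Cxcr4+ replicates 1 to 3, against 29788, 29746 and 28389.9 FPKM in Cxcr4- replicates 1 to 3. Small subunit members summed to 18596, 20222 and 20318 FPKM in Cxcr4+ libraries, against 20245, 21127 and 20009 FPKM in Cxcr4- libraries. Both sums overlapped between the groups, and the lowest of each was Cxcr4+ replicate 1. The members took 10.7, 11.8 and 11.5% of summed FPKM in Cxcr4+ libraries, against 11.99, 12.5 and 11.8% in Cxcr4- libraries, a mean of 11.3 ± 0.539% and 12.1 ± 0.382% (SD, n = 3 each). These shares overlapped narrowly, at Cxcr4+ replicate 2 and Cxcr4- replicate 3. The difference in mean share was -0.746 points, and -0.445 points without Cxcr4+ replicate 1. As a share of summed counts the members took 8.37 ± 0.347% in Cxcr4+ and 8.67 ± 0.206% in Cxcr4- libraries (SD, n = 3 each), a difference of -0.300 points. The ratio of large to small subunit sums was 1.42, 1.43 and 1.40 in Cxcr4+ libraries, against 1.47, 1.41 and 1.42 in Cxcr4- libraries, and the mean log2 ratio differed by -0.016, which is less than its pooled SD of 0.027 and turned to 0.0031 without Cxcr4- replicate 1. As bulk RNA, less RNA of these genes per cell and fewer cells of one kind in a sort cannot be told apart.

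**Figure D4:**
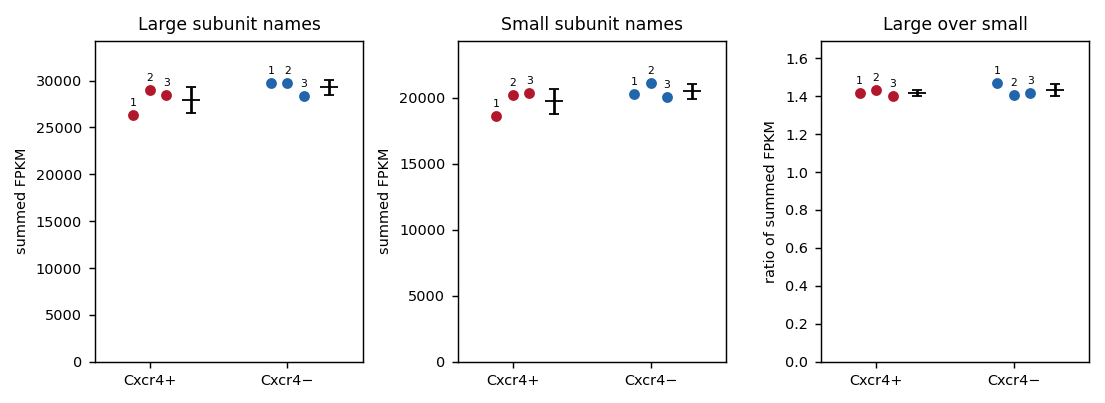
Summed FPKM of large subunit members, of small subunit members, and their ratio in each library (points, numbered by replicate), with the 3 Cxcr4+ libraries left of the 3 Cxcr4- libraries and the mean ± SD beside them. The groups overlap in each panel and Cxcr4+ replicate 1 is the lowest in both sums.

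The lean towards lower levels was uneven over the libraries. Of 76 core members, 43 had their lowest FPKM of all libraries in Cxcr4+ replicate 1, where the median log2 deviation from a gene's own mean was -0.09; the medians in Cxcr4+ replicates 2 and 3 were 0.0098 and 0.02. In Cxcr4- replicates 1 to 3 the medians were 0.03, 0.07 and -0.02, and 29 core members had their highest value in replicate 2. With single libraries left out of the fit, 52 (without Cxcr4+ replicate 2) to 74 (without Cxcr4+ replicate 3) of 87 members were below 0, and 58 were without Cxcr4+ replicate 1. Values of other genes moved with that library or with the groups. The fibroblast marker sum was 29.4 FPKM in Cxcr4+ replicate 1, against 6.32 and 7.69 FPKM in the other Cxcr4+ libraries and 3.42 to 6.94 FPKM in Cxcr4- libraries. Of the 15 fibroblast markers, Lum was at 0. Mitochondrially encoded transcripts, which take part of every library's total, summed to 53923 to 60825 FPKM in Cxcr4+ libraries and 46417 to 51162 FPKM in Cxcr4- libraries. With mitochondrially encoded genes and the 10 highest of the other genes taken out of the total, the difference in share was -0.444 points against -0.746. The 12 markers of tumour and ductal epithelium summed to 1.84 to 3.44 FPKM in Cxcr4+ libraries and 3.68 to 6.58 FPKM in Cxcr4- libraries, with Tff1 at 0, and did not overlap. The 15 proliferation genes summed to 302 to 381 FPKM in Cxcr4+ libraries and 251 to 303 FPKM in Cxcr4- libraries, with 15 of 15 log2 fold changes above 0 and 0 past the test. The part of the fibroblast, epithelial and proliferation genes in the result was not tested.

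**Figure D5:**
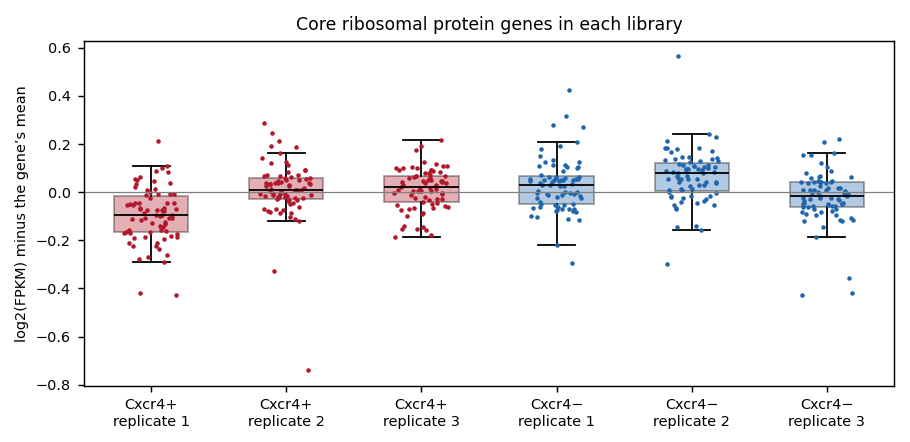
Log2 FPKM minus the gene's own mean for core members in each library, 3 Cxcr4+ (red) left of 3 Cxcr4- (blue); boxes show the median and quartiles, whiskers reach the furthest point within 1.5 box lengths. Rpl29 is left out for scale. The box of Cxcr4+ replicate 1 lies lowest, with a median near -0.09, and that of Cxcr4- replicate 2 highest, near 0.07.

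A ribosomal protein and a ribosome-bound protein outside the name rule also had means a little lower in Cxcr4+ cells. Fau, which yields the small subunit protein eS30, averaged 743 ± 32.1 FPKM in Cxcr4+ and 782 ± 23.1 FPKM in Cxcr4- cells, and Rack1, the signalling scaffold of the small subunit, 426 ± 28.6 and 461 ± 29.3 FPKM in the same order (SD, n = 3 each). Neither passed the test. Of 19 elongation factor and other mRNAs listed as having such a tract, 0 passed, 12 were below 0 and the median was -0.03. Eef2, the elongation factor that moves the ribosome along, averaged 1290.1 ± 119 FPKM in Cxcr4+ and 1449 ± 38.4 FPKM in Cxcr4- cells. Vim, the intermediate filament protein vimentin, lay furthest the other way by p, at 82.4 ± 2.25 FPKM in Cxcr4+ and 69.0 ± 5.60 FPKM in Cxcr4- cells (SD, n = 3 each).

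No gene of the lists for building ribosomes passed the test: 0 of 19 for RNA polymerase I and its factors, 0 of 15 for RNA polymerase III, 0 of 35 for 40S assembly, 0 of 35 for 60S assembly and 0 of 18 for nucleolar modification, with 11, 9, 16, 18 and 10 of them above 0. List medians lay between -0.01 and 0.03. The same held for 0 of 21 genes of mTORC1 and tract control, 0 of 17 of ribosome quality control, 0 of 9 transcription factors and 0 of 85 mitochondrial ribosomal proteins. By library, though, the assembly genes followed the number on the label: 40S assembly genes summed to 543, 664 and 575 FPKM in Cxcr4+ replicates 1 to 3, against 536, 648 and 577 FPKM in Cxcr4- replicates 1 to 3. The sums of 60S assembly genes were 656, 788 and 693 FPKM in Cxcr4+ libraries, against 663, 797 and 699 FPKM in Cxcr4- libraries. Replicate 2 was the highest in each group for both lists. The 13 stress and immediate early genes were lowest there, at 2328, 1482 and 2305 FPKM in Cxcr4+ libraries, against 2380, 1549 and 2322 FPKM in Cxcr4- libraries. The ribosomal protein members, summed over both subunits, had their highest FPKM in replicate 2 of each group. It was 49181 FPKM in Cxcr4+ and 50873 FPKM in Cxcr4- cells. In Cxcr4+ cells the margin was narrow, with replicate 3 at 48740 FPKM. As a share of summed counts, Cxcr4+ replicate 3 stood above replicate 2, at 8.61% against 8.53%. Cxcr4- replicate 2 was the highest of its group, at 8.90%. Of the core members, 18 had their highest FPKM of all libraries in Cxcr4+ replicate 3 and 8 in Cxcr4+ replicate 2.

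The starts of the genes were read in RefSeq's promoter table (GRCm38.p6), which held 57 of the 76 core members. A run of at least 8 letters made of C and T alone, on the gene's strand within 15 bases of the start, was found in 23 of 57 (40.4%), beside 11.9% of 27025 promoters of the same length. The same run of G and A was found in 3.51% of the members and 12.9% of all. CCGGAAG, searched on both strands from 250 bases before to 50 after the start, was in 40.4% of members and 9.12% of all, CTTTCC, which can overlap the run, in 47.4% and 26.3%, and TATAAA in 8.77% and 14.2%. Matching letters describe these windows and are not binding sites. A run counted here can lie wholly before the annotated start, as that of Rpl4 below does, and so need not be the tract of the mRNA. Windows of 30 bases about the start, shown for the 3 highest members with such a run and for Rpl35, whose run of 18 letters is the longest of those printed, have the run in capitals and lie in GRCm38.p6 at chr9:64173372-64173401 for Rpl4, chr4:86857353-86857382 (minus strand) for Rps6, chr3:90213634-90213663 (minus strand) for Rps27 and chr2:39005117-39005146 (minus strand) for Rpl35.
Rpl4: TTCCTTTTCCTgtgggagcagccgggtaga
Rps6: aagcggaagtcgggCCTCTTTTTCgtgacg
Rps27: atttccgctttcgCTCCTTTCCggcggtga
Rpl35: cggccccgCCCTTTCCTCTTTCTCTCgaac
Rps27rt, on chr9:114982725-114982754 (minus strand), has no run longer than 6 letters in this window, the first of that length being in capitals. Its level was 242 FPKM over the 6 libraries beside 835 FPKM for Rps27. The split of reads between these genes is uncertain over their identical coding sequence, and a link between run and level was not tested.
Rps27rt: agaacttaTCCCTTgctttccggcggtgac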

How the data were processed

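RNA of sorted macrophages was sequenced in 6 libraries. The tools named are cutadapt, HISAT2 and StringTie and the build is GRCm39, per the submitters' processing notes; tool versions, annotation release, counting settings and strand use are not given in the sources read. The authors deposited 1 table with FPKM, scaled by them to gene length and library size, and with estimated counts, already whole numbers, for each library, per the file headers. An FPKM of 0.0001 stood for a count of 0 and was read as 0.

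Counts were fitted with edgeR 4.0.16 (R 4.3.3), by the quasi-likelihood test, on genes that filterByExpr kept (count of at least 10, total of at least 15), scaled by TMM, with Cxcr4 status as its term; p-values were adjusted by Benjamini-Hochberg over 16031 genes. Standard errors are the size of a log2 fold change over the root of its F statistic. Copies were found with blastn 2.17.0 in GENCODE M21 transcripts, joined by gene identifier, and mismatches with Biopython 1.88. Alternatives were DESeq2 1.42.0, limma-trend (limma 3.58.1, pseudocounts 1 and 0.1), other scalings and filters, a replicate block and leaving out each library; adding copies, the libraries numbered 1 and 3 alone, counts divided by 4, edgeR's bias-adjusted dispersion and core genes alone were chosen after seeing the data. The procedure was tested on simulated data.

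Genes are named by a rule: the 6 highest and 3 lowest core members per subunit, the 6 members of smallest p per direction, members past the threshold, the relatives, those nearest to 1 FPKM, and Rpl32, Rps6, Rpl5, Rpl11, Rplp0, Rpsa and Rps27a; genes named for their copies or starts were chosen after their values were seen. Members and lists were chosen with earlier results of these data known. Figures were drawn with matplotlib 3.10.9. Some genes that entered the fits and counts are not reported here by name or drawn by name in the figures.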

Additional observations from a re-analysis of the deposited data

How the results depend on the processing

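Of the results on members, calls in either direction stayed at 0 in each of 22 alternatives. The median log2 fold change of the members stayed below 0 in 22 of 22 (-0.0966 to -0.0265). For 12 named genes, 0 of 227 values changed sign. These 12 were the members of smallest p in each direction in the fit reported, so this count says little about the signs of other members. The number of all genes called was less steady: 5 in the fit reported, 63 with DESeq2, 2 with limma-trend on log2(FPKM + 1) and 1 to 9 when single libraries were left out. With the replicate number as a block it was 0 (1495 genes at an unadjusted p under 0.05, beside 777 without the block). Deviations of same-numbered libraries correlated at 0.038, 0.141 and 0.045 over genes. Those of differently numbered libraries correlated at 0.0213 and 0.0522 between replicates 1 and 3, and at -0.0890 to -0.0551 where 1 of them was a replicate 2. The labels name no pairing, so the fit reported leaves the numbers out and does not remove what replicate 2 of both groups may share. Leaving out single libraries put the small subunit median between -0.097 (without Cxcr4+ replicate 3) and -0.0217, and adding copies moved the difference in share of summed FPKM to -1.34 points, against -0.746, since copies enlarge the share itself; it was -0.965 to -0.445 with single libraries left out and -0.444 with mitochondrial and the 10 highest genes out of the total. The difference in log2 ratio of the subunits was -0.0287 to 0.0031 with single libraries left out, above 0 without Cxcr4- replicate 1. The cause of the other shifts was not tested. Replicates number 3 a group, and an exact two-sided test of a single value could not go below p = 0.1. Fragments of near-identical copies leave levels of single genes uncertain, and how this compares with the limit set by depth was not tested.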
